A study of Mus musculus with 12 samples.

Results

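The nuclear genes of the mitochondrial respiratory chain were followed in mouse urinary bladder over 1 circadian cycle on 12 single-colour microarrays. The genes were taken by name: every array name beginning with Nduf (complex I), Uqcr (complex III), Atp5 (complex V) or Cox4 to Cox8 (complex IV), plus Sdha, Sdhb, Sdhc and Sdhd (complex II). Each name was read from its brightest probe. The array carries 82 such names, of which 80 were well above background on at least 4 arrays, out of 18557 names that passed the same filter. All 80 were well above background on 12 of 12 arrays, whereas Cox4i2 and Cox8c, the hypoxia-linked and testis isoforms of their subunits, were so on 0 arrays and have no level here. The 80 comprise 36 names of complex I, 4 of complex II, 7 of complex III, 16 of complex IV and 16 of complex V. The last is Cox4nb, now named Emc8, which encodes a subunit of the endoplasmic reticulum membrane protein complex and no part of the chain.

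All bladders came from wild-type C57BL/6 female mice aged 10 weeks. The mice were kept for 2 weeks in cycles of 12 h light and 12 h dark and were then killed in constant darkness at circadian time (CT) 0, 4, 8, 12, 16 or 20 h. Each of the 6 times has 2 arrays. The labels give neither the number of days in darkness nor whether an array holds 1 animal, so p-values measure the spread between arrays, which may be partly technical. The arrays lie on 3 slides, and each slide holds the 4 arrays of a pair of successive times, beginning with CT0 and CT4 together. Between 64.2% and 70.2% of spots on an array were well above background. The defining genes of the tissue were present: 7 of 7 smooth muscle markers and 8 of 8 urothelial markers were well above background on every array. In whole bladder RNA, fewer cells of a type and less RNA per cell cannot be told apart. A level below is the log2 intensity minus the 75th percentile of its array, so a negative level lies under that percentile. Levels are compared between arrays for 1 gene at a time. The exceptions are sums of marker genes on an array and remarks on brightness.

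The respiratory chain passes electrons from NADH and succinate to oxygen through complexes I to IV of the inner mitochondrial membrane and uses the resulting proton gradient to make ATP in complex V. Most subunits are encoded in the nucleus, and a core set in mitochondrial DNA. Complex IV has alternative nuclear subunits: general forms found in most tissues, and forms typical of heart and skeletal muscle, brown fat or testis. None of the 26 searched names of mitochondrially encoded subunits, which give each subunit with and without the mt- style, was on the array. Those subunits are not analysed here, and names of mitochondrial rRNAs and tRNAs were not searched.

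Nuclear respiratory chain genes are known targets of NRF1, of the ETS factor GABP, of YY1 and of the ERR receptors, and the circadian activator CLOCK:BMAL1 binds E-boxes. RefSeq promoter windows of 300 bases (250 before to 50 after the start, GRCm38.p6) were found for 67 of the 80 names, as 72 windows. Letters searched on both strands were GCATGCGC (NRF1 core), CCGGAAG (ETS), AAGATGGCG (YY1 core), AAGGTCA (ERR), GGGCGG (SP1) and CACGTG (E-box). The NRF1 core was in 13.9% of the windows of the 80 names against 2.71% of all 32851 windows. The ETS letters were in 23.6% against 8.86%, the YY1 letters in 9.7% against 1.40%, and the ERR letters in 11.1% against 4.72%. The SP1 letters were in 40.3% against 35.66%, and the E-box was in 9.7% against 7.15%. The median GC content was 57.5% against 52.7%, and the median number of CpG dinucleotides 19 against 7. These are descriptions of letters in a window, not of binding.

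The 3 promoters printed here were chosen because they belong to general and tissue-restricted forms of complex IV subunits whose values are set side by side below. Each run is the 250 bases before the start on the minus strand, 5′ to 3′, and capitals mark matches to the letters above. Cox6a1 lies at chr5:115348959-115349208, Cox8a at chr19:7217617-7217866 and Cox8b at chr7:140900447-140900696.
Cox6a1: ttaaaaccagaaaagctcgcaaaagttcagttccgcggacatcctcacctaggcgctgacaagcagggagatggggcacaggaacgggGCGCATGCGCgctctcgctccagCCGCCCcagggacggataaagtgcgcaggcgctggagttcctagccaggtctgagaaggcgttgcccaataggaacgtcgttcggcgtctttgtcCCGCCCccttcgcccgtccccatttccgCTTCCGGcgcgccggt
Cox8a: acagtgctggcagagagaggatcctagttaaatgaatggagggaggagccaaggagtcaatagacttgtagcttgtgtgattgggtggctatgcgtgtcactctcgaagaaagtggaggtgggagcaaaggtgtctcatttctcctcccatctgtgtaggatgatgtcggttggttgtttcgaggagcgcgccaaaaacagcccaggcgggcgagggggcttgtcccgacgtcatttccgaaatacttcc
Cox8b: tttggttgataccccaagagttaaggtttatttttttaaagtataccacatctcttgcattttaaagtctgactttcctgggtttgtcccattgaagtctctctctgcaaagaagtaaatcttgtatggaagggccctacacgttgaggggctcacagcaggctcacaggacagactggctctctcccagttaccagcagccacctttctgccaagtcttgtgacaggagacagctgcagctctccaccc
In Cox6a1 the capitals hold 2 overlapping NRF1 core matches on opposite strands, 2 SP1 matches and 1 ETS match. Cox8a, the general form, has 2 ETS matches, both reaching past the start and so not in the printed run, with 19 CpG in its 300 bases. Cox8b, the form of heart, skeletal muscle and brown fat, has no match to any of the 6 sets of letters and 2 CpG.

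The respiratory chain genes varied little over the cycle. In the fit of a 24 h wave, 0 of 80 passed an adjusted p of 0.05 (limma, Benjamini-Hochberg over all 18557 names), where 0.593% of all names tested passed. A list of 80 would hold few or no calls at that rate, so this count alone says little about these genes. At an unadjusted p under 0.05 there was 1 of 80, Cox6a2, against 15.7% of all names. The median fitted fold from trough to peak was 1.075 for the 80 genes and 1.186 for all names tested. The gap depended on the processing. The medians were 1.075 and 1.13 with normexp background correction, and 1.077 and 1.127 in the authors' deposited table. Among names well above background on all 12 arrays, they were 1.075 and 1.172. The spread between arrays was also smaller for the 80 (below), and the folds were not corrected for it or for brightness. The fitted fold was under 1.1 for 52 of the 80 and under 1.25 for 78, and the remaining pair was Cox6a2 and Cox8b. With the amplitude raised by 1 standard error, the median fold was still 1.15.

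The other tests over time called as few. The test for any difference between the 6 times passed 0 of 80 at an adjusted p of 0.05, against 0.0916% of all names. At this rate too, 80 genes would hold few or no calls. Without adjustment it passed 1 of 80, Ndufv2, against 18.9%. A 12 h wave beyond the 24 h wave passed 0 of 80, against 0% of all names, and 0 of 80 at an unadjusted p under 0.05, against 10.6%. For scale, 13 of 16 core clock genes measured on the same arrays passed the 24 h test, with a median fold of 3.98. Nr1d1, the clock repressor REV-ERB alpha, had a fold of 11.5 (10.4 to 12.8 within 1 standard error, limma adjusted p = 9.92e-06), and Arntl, the activator BMAL1, 9.02 (7.38 to 11.02, adjusted p = 0.00206). Cry1, Clock and Rora did not pass, with folds of 2.32 (limma adjusted p = 0.0657), 1.46 (adjusted p = 0.0962) and 1.19 (adjusted p = 0.434). Of the clock genes that passed, Cry2 had the smallest fold, 1.65 (adjusted p = 0.025). The clock list was chosen with these data known and is given only for scale. It does not show whether waves as small as those of most of the 80 genes could have passed.

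**Figure D1:**
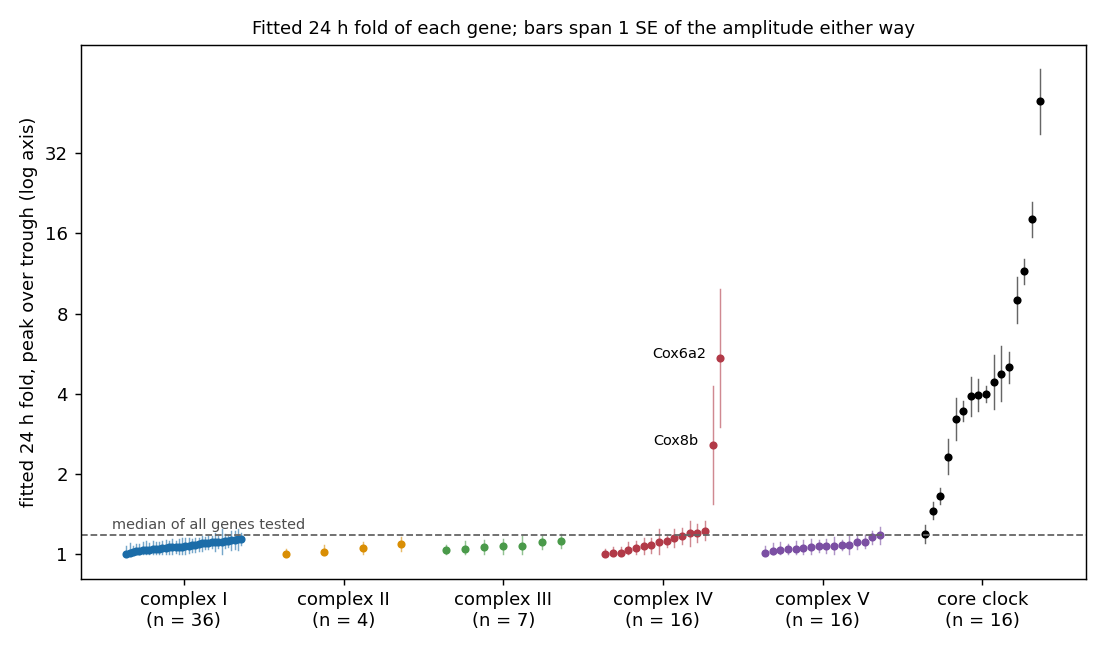
Fitted 24 h fold (peak over trough, log axis) of each respiratory chain gene by complex and of 16 core clock genes; each point is a gene and each bar spans 1 standard error of the amplitude either way. All points of complexes I, II, III and V and 14 of 16 of complex IV lie under 1.25, while Cox6a2 and Cox8b stand apart.

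The spread of these genes was small as well. The lowest and highest of the 12 arrays differed by a median of 0.34 log2 units for the 80 genes, against 0.65 for all names tested, and the residual SD had a median of 0.091 against 0.156. Cox6a2 spanned 3.88 log2 units and Cox8b 3.25, and the next widest was Cox6b2, a testis form, at 0.74. The 95% interval of the CT12 minus CT0 difference lay within 1.5-fold either way for 78 of 80 genes. The same held for 78 at CT20 minus CT8 and for 71 at CT16 minus CT4. Cox6a2 and Cox8b were outside in all 3 comparisons.

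Complex I, which takes electrons from NADH, had 36 names with fitted folds between 1.004 and 1.14. Ndufs1, the largest iron-sulphur subunit, had levels of 3.65 and 3.70 at CT0, 3.86 and 3.72 at CT4, 3.97 and 3.86 at CT8, 3.77 and 3.79 at CT12, 3.79 and 3.81 at CT16, and 3.79 and 3.71 at CT20. The lowest mean was at CT0 and the highest at CT8, and the 24 h fold was 1.11 (1.06 to 1.18 within 1 standard error, limma adjusted p = 0.466). Ndufv1, the flavin-carrying subunit that oxidises NADH, had a fold of 1.07 (limma adjusted p = 0.72). By role, the median fold was 1.04 for the 7 core subunits, 1.08 for the 13 of the A series, 1.1 for the 10 of the B series, 1.052 for the 2 of the C series and 1.08 for the 3 accessory subunits of the iron-sulphur series. Ndufaf1, an assembly factor, had 1.09. The largest fitted folds of the complex were those of Ndufb11, a membrane-arm accessory subunit, at 1.14 (1.08 to 1.20, peak at CT17.4, adjusted p = 0.379) and of Ndufv2 at 1.14 (1.04 to 1.24, adjusted p = 0.656).

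Ndufv2, an iron-sulphur core subunit next to Ndufv1, had the lowest p of the 80 genes in the test for any difference. Its levels were 2.85 and 2.93 at CT0, 2.74 and 2.73 at CT4, 3.192 and 3.001 at CT8, 2.78 and 2.85 at CT12, 3.13 and 3.13 at CT16, and 2.88 and 2.81 at CT20. CT8 and CT16 were the high times, and neither overlapped any of the other 4 times. The test for any difference gave an adjusted p of 0.181 (limma). CT16 exceeded CT4 by 0.40 ± 0.086 log2 units (SE, limma adjusted p = 0.0708). That adjusted p was under 0.05 in 4 of the other settings (0.0324 with array weights, 0.0416 with an intensity trend, 0.0436 with the authors' table and 0.0455 with normexp) and reached 0.266 without CT4 replicate 1. Its probe lies at 64306861 to 64307002 on chromosome 17 (mm7).

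Complex II, which oxidises succinate and is also an enzyme of the citric acid cycle, had the smallest folds, with a median of 1.04 over its 4 genes. Sdha, the flavoprotein, had a fold of 1.02, Sdhb, the iron-sulphur subunit, 1.05, and the membrane anchors Sdhc and Sdhd 1.09 and 1.003. Sdhd was the steadiest of the 4. Its levels were 4.23 and 4.26 at CT0, 4.16 and 4.16 at CT4, 4.32 and 4.25 at CT8, 4.15 and 4.25 at CT12, 4.18 and 4.22 at CT16, and 4.24 and 4.24 at CT20.

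Complex III, which passes electrons from ubiquinol to cytochrome c, had 7 names with folds between 1.03 and 1.12. The core proteins Uqcrc1 and Uqcrc2 had folds of 1.03 and 1.06, and Uqcrfs1, the Rieske iron-sulphur protein, 1.07. The largest were the small subunits Uqcrb, at 1.12 with a peak at CT5.2 (adjusted p = 0.503), and Uqcrq, at 1.11 with a peak at CT19.5 (limma adjusted p = 0.515). Neither passed, and their fitted peaks lie on opposite sides of the cycle.

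Complex V, the ATP synthase, had 16 names with folds between 1.01 and 1.18. By role, the median fold was 1.07 for the 5 subunits of the F1 part, 1.08 for the 3 genes of the c ring, 1.06 for the 4 of the peripheral stalk and 1.06 for the 3 other membrane subunits. In the F1 part, Atp5a1, the alpha subunit, had a fold of 1.12, Atp5b, the catalytic beta subunit, 1.08, and Atp5c1, the rotating gamma subunit, 1.05. The largest folds were Atp5l, the membrane subunit g, at 1.18 (1.09 to 1.27, peak at CT16.1, adjusted p = 0.454) and Atp5s, now named Dmac2l, at 1.16 (1.098 to 1.23, peak at CT0.5, limma adjusted p = 0.343). Atp5l had levels of 5.33 and 5.16 at CT0, 5.20 and 5.14 at CT4, 5.42 and 5.16 at CT8, 5.18 and 5.25 at CT12, 5.59 and 5.50 at CT16, and 5.30 and 5.24 at CT20. Both CT16 arrays were above the other 10. Atp5s was the only gene of the 80 with an unadjusted p under 0.05 for CT12 minus CT0, lower by 0.23 ± 0.095 log2 units at CT12 (adjusted p = 0.455). Of all names, 5.95% were lower at that threshold.

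Complex IV, cytochrome c oxidase, held both steady and variable genes. Among the general subunits, Cox5b had a fold of 1.001, Cox4i1 1.04, Cox5a 1.05, Cox6b1 1.01, Cox7a2 1.01, Cox7b 1.07, Cox8a 1.08 and Cox6a1 1.12. Cox6c, a small general subunit, had the largest fold of the general forms, 1.23 (1.13 to 1.33, peak at CT15.4, limma adjusted p = 0.375). Its levels were 7.30 and 7.08 at CT0, 7.36 and 7.26 at CT4, 7.48 and 7.24 at CT8, 7.39 and 7.27 at CT12, 7.57 and 7.73 at CT16, and 7.45 and 7.40 at CT20. Both CT16 arrays were the highest. Ndufa4, long listed under complex I and now placed in complex IV, followed at 1.20 (1.12 to 1.30, peak at CT14.9, adjusted p = 0.388), and Cox7a2l, a supercomplex factor that joins complexes III and IV, also had 1.20 (1.08 to 1.34, adjusted p = 0.585).

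These last members of complex IV show how far the pairs of arrays differed. Ndufa4 had levels of 5.59 and 5.59 at CT0, 5.62 and 5.45 at CT4, 5.86 and 5.53 at CT8, 5.72 and 5.60 at CT12, 5.88 and 5.94 at CT16, and 5.70 and 5.58 at CT20. Cox7a2l had 4.06 and 3.74 at CT0, 3.94 and 3.69 at CT4, 4.18 and 3.69 at CT8, 3.996 and 3.87 at CT12, 4.27 and 4.20 at CT16, and 3.73 and 3.87 at CT20. In both genes the CT16 arrays were the 2 highest, and replicate 1 of CT8 stood well above replicate 2. Cox7c, a small general subunit, had 2.802 and 3.03 at CT0, 2.82 and 2.84 at CT4, 2.74 and 2.70 at CT8, 2.82 and 2.82 at CT12, 2.99 and 3.10 at CT16, and 3.02 and 2.78 at CT20. Both CT8 arrays were below the other 10, and its fold was 1.17 (1.098 to 1.25, peak at CT18.8, limma adjusted p = 0.391).

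Cox6a2 and Cox8b, tissue forms of complex IV subunits, ranged widely between arrays of the same time, while their general counterparts did not. Cox6a2, the form of heart and skeletal muscle, had levels of −1.15 and −4.28 at CT0, −1.35 and −4.06 at CT4, −4.38 and −1.91 at CT8, −4.42 and −4.02 at CT12, −5.03 and −4.89 at CT16, and −4.45 and −4.49 at CT20. It was high on 3 arrays, CT0 replicate 1, CT4 replicate 1 and CT8 replicate 2, each paired with a low array of the same time. The other 9 arrays lay between −5.03 and −4.02. Its fitted 24 h fold was 5.47 (3.01 to 9.94 within 1 standard error, peak at CT3.8, limma adjusted p = 0.313), and it was 1.60 without those 3 arrays. As these were its own highest arrays, a smaller fold without them was to be foreseen, and the omission was chosen after seeing the data. Cox6a1, the general form, moved between 7.74 and 8.02. The Cox6a2 probe lies at 124302204 to 124302263 on chromosome 7 (mm7).

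Cox8b had levels of 0.68 and −2.45 at CT0, 0.80 and −1.08 at CT4, 0.05 and 0.23 at CT8, −0.97 and −0.14 at CT12, −0.19 and −0.69 at CT16, and −2.17 and −1.02 at CT20. The same 3 arrays were its highest, and CT0 replicate 2 and CT20 replicate 1 were its lowest. Its fitted fold was 2.57 (1.55 to 4.27, peak at CT8.1, limma adjusted p = 0.526), and it was 3.61 (adjusted p = 0.312) without the 3 arrays. Cox8a, the general form, moved between 6.65 and 6.92. Cox7a1, the muscle and brown fat form, was steady, between 1.26 and 1.70 with a fold of 1.15 (adjusted p = 0.548). Its general partner Cox7a2 moved between 5.25 and 5.46. Cox6b2 lay between −1.87 and −1.13 with a fold of 1.11 (adjusted p = 0.832) and was lower at CT16 than at CT4 by 0.33 ± 0.150 log2 units (limma adjusted p = 0.257). Its general partner Cox6b1 lay between 1.72 and 1.97.

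Some markers of striated muscle, ganglion neurons and fat stood high or low on the same arrays, and others of these lists did not. The 3 arrays were also the 3 highest for 5 of 11 slow and cardiac muscle markers that passed the filter (Mb, Csrp3, Myl3, Myh6 and Tnnt1), for 3 of 11 fast striated muscle markers, for 2 of 4 autonomic ganglion neuron markers (Dbh and Snap25) and for 176 names in all (0.948%). The summed level of the ganglion list ran from 106 on CT12 replicate 1 to 161 on CT20 replicate 1. It is set mostly by Uchl1, whose levels ran from 6.72 to 7.33. With each of the 4 markers scaled to its own mean and SD, their mean was highest on the 3 arrays. This scaled mean was 1.011 on CT4 replicate 1, 0.896 on CT0 replicate 1 and 0.603 on CT8 replicate 2. Elsewhere it was at most 0.017. Mb, the oxygen store myoglobin, lay between −0.84 and 0.15 on the 3 arrays and between −6.63 and −4.04 on the other 9. Csrp3 was well above background on only 4 arrays, the least the filter allows. Other muscle markers had a lower mean on the 3 arrays than on the other 9. The log2 differences were −0.76 for Myh2, −0.44 for Tnnc1, −0.26 for Tnnt2, −0.19 for Actc1 and −0.1 for Ckm and Acta1. The summed level of the fast list, set mostly by Acta1, was 93.9 on CT0 replicate 2 and 93.8 on CT12 replicate 1, where Cox6a2 was low. The scaled mean of its 11 markers was highest on the 3 arrays. It was 0.626 on CT0 replicate 1, 0.534 on CT4 replicate 1 and 0.474 on CT8 replicate 2. It was 0.446 on CT12 replicate 1 and −0.041 on CT0 replicate 2. The summed level of the slow and cardiac list, in units of the array's 75th percentile, did not follow Cox6a2. It ran from 102 to 121 at CT0, 104 to 118 at CT4 and 116 to 137 at CT8. At CT12 it ran from 119 to 134, at CT16 from 131 to 137 and at CT20 from 125 to 134. That sum is set mostly by Actc1 and Tnnt2, cardiac forms of actin and troponin T, whose levels ran from 5.75 to 6.33 and from 5.39 to 6.14. The scaled mean of this list was also highest on the 3 arrays. It was 0.901 on CT4 replicate 1, 0.623 on CT8 replicate 2 and 0.618 on CT0 replicate 1. Myl2, the ventricular light chain, did not pass the filter. The lowest arrays of Cox8b were the lowest pair for 7 of 9 adipocyte markers and for 256 names in all (1.38%). Adipoq, adiponectin, was 1.38 on CT0 replicate 2 and 3.04 on CT20 replicate 1 and between 3.84 and 5.84 on the other 10. The summed adipocyte level ran from 230 to 559 at CT0, 368 to 734 at CT4, 389 to 450 at CT8, 376 to 750 at CT12, 492 to 503 at CT16 and 316 to 413 at CT20. Of 6 brown fat markers, Elovl3 and Otop1 were not well above background on any array and Ucp1, the uncoupling protein that defines brown fat, on 4. The summed level of the 4 brown fat markers that passed the filter is set mostly by Fabp3 and Cidea, with little from Ucp1. It ran from 4.38 to 6.02 at CT0, 5.95 to 7.07 at CT4 and 6.03 to 8.30 at CT8. At CT12 it ran from 6.34 to 6.47, at CT16 from 7.93 to 8.15 and at CT20 from 4.89 to 5.41. The part of muscle, neuron or fat RNA in the Cox6a2 and Cox8b values was not tested. A fit with the striated muscle profile as a covariate gave folds of 3.33 and 1.67. That profile, the scaled mean of the fast and slow lists, was itself high on the 3 arrays. Smaller folds were thus to be foreseen.

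**Figure D2:**
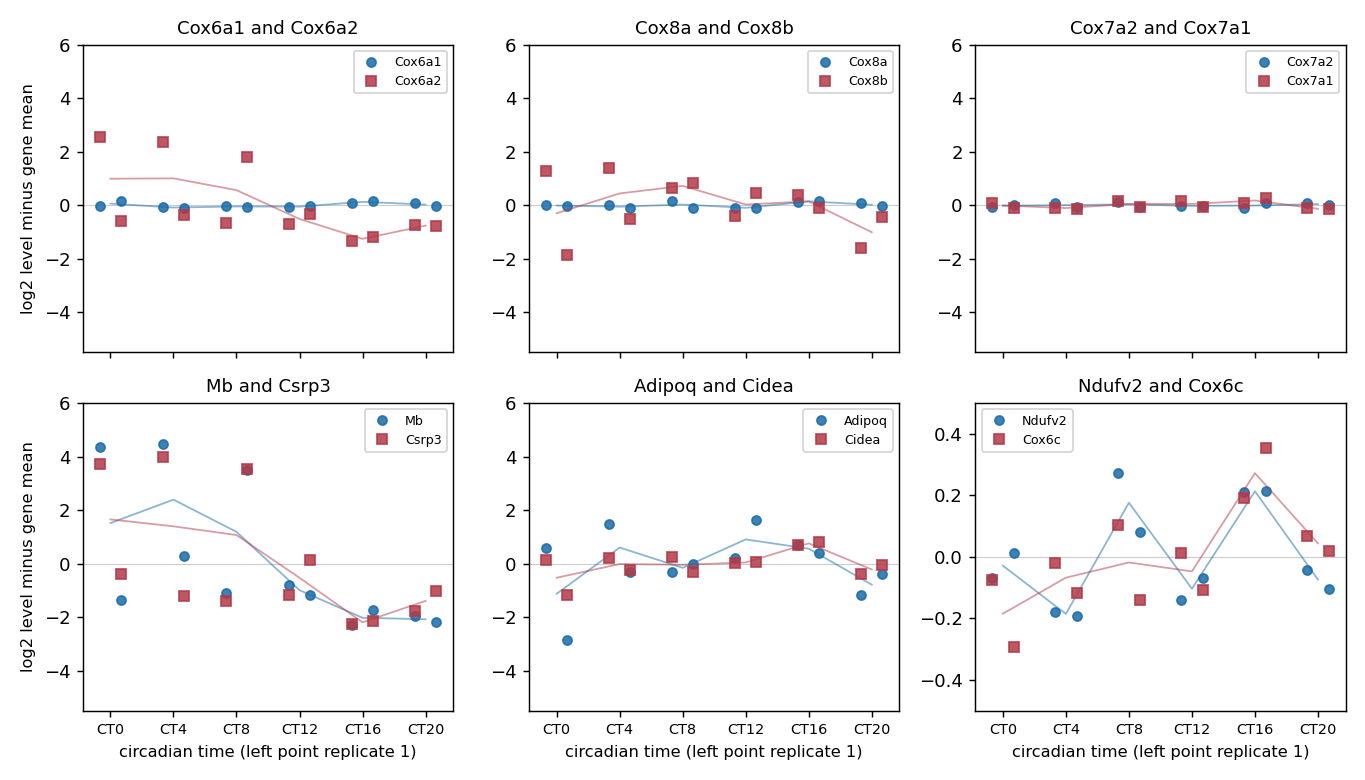
Level of each gene on each array minus its mean over the 12 arrays (log2), by circadian time; the left point of a pair is replicate 1 and lines join the means of the pairs, with a narrower scale in the last panel. Cox6a2, Mb and Csrp3 are high on 1 array each of CT0, CT4 and CT8, while Cox6a1, Cox8a, Cox7a2 and Cox7a1 stay near 0.

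Of the 3 comparisons of times 12 h apart, CT16 against CT4 had the most genes on the same side of 0. At CT16, 65 of 80 had a higher mean than at CT4 under the 75th percentile scaling, against 52.8% of all names, but only 39 did under quantile normalisation. Both CT16 arrays were above both CT4 arrays for 50 of 80, against 30.1% of all names, and below both for 7, against 25.8%. At an unadjusted p under 0.05, 15 of 80 were higher, against 11.5% of all names, and 0 were lower, against 9.28%. At an adjusted p of 0.05 there were 0 of 80 higher, against 0.221%, and 0 lower, against 0.172%. The 15 were 9 of complex I (Ndufv2, Ndufa1, Ndufa8, Ndufa13, Ndufb5, Ndufb6, Ndufb9, Ndufb10 and Ndufb11), 4 of complex IV (Cox6a1, Cox6c, Ndufa4 and Cox7a2l) and 2 of complex V (Atp5g3 and Atp5l). Without CT16 replicate 2 they numbered 3, and without CT4 replicate 2 they numbered 5.

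The size of the shift was small and differed by subunit group. The median difference was 0.105 log2 units over the 80 genes and 0.021 over all names tested. It was 0.118 in complex I, 0.034 in complex II, 0.124 in complex III, 0.118 in complex IV and 0.086 in complex V. Within complex I it was 0.211 for the 10 B-series accessory subunits of the membrane arm, of which 9 were above 0, and 0.051 for the 7 core subunits. Ndufb9 had the lowest p of the B series, with levels of 6.57 and 6.48 at CT4 and 6.82 and 6.80 at CT16, a difference of 0.28 ± 0.082 log2 units (limma adjusted p = 0.119). Ndufb3 was the exception of that series, lower by 0.20 log2 units at CT16 (adjusted p = 0.252). Differences between these groups were not tested. The 80-gene median was 0.159 without CT4 replicate 1 and 0.067 without CT4 replicate 2.

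**Figure D3:**
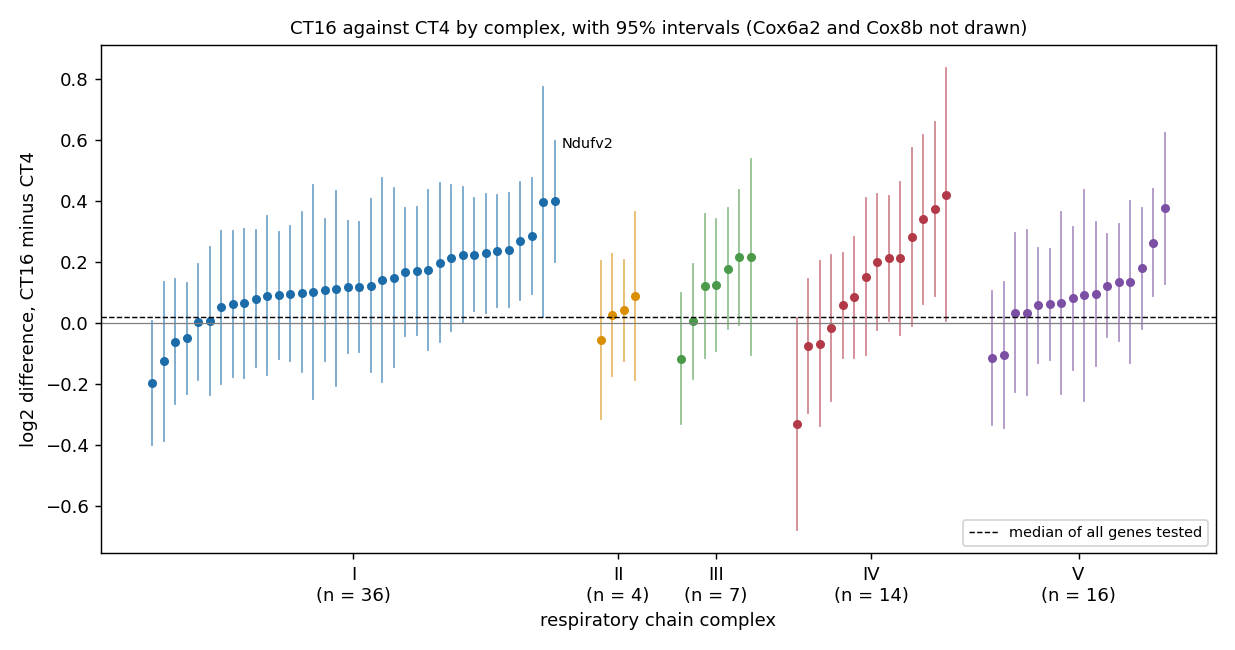
Difference in log2 level between CT16 and CT4 for 77 genes of complexes I to V, ordered within each complex, with 95% intervals; the dashed line is the median of all names tested, 0.021. Most points lie above 0 and most intervals cross it, and Ndufv2 has the interval farthest from 0.

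This shift depended on how arrays were scaled. The median difference of the 80 genes was 0.189 with each array centred on its median, where that of all names was 0.105. It was 0.045 in the authors' deposited table, with 49 of 80 higher, and −0.004 under quantile normalisation. Arrays of 1 time also differed among themselves. CT8 replicate 1 had 71 of 80 genes above their own mean, with a median deviation of 0.145, and CT8 replicate 2 had 23, with −0.053. CT16 replicates 1 and 2 had 60 and 67 genes above their mean, and CT4 replicates 1 and 2 had 44 and 7. The gap between the CT8 arrays was thus wider than the CT16 minus CT4 difference. All 3 comparisons of times 12 h apart set arrays of different slides against each other, so slide and time cannot be told apart in any of them.

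**Figure D4:**
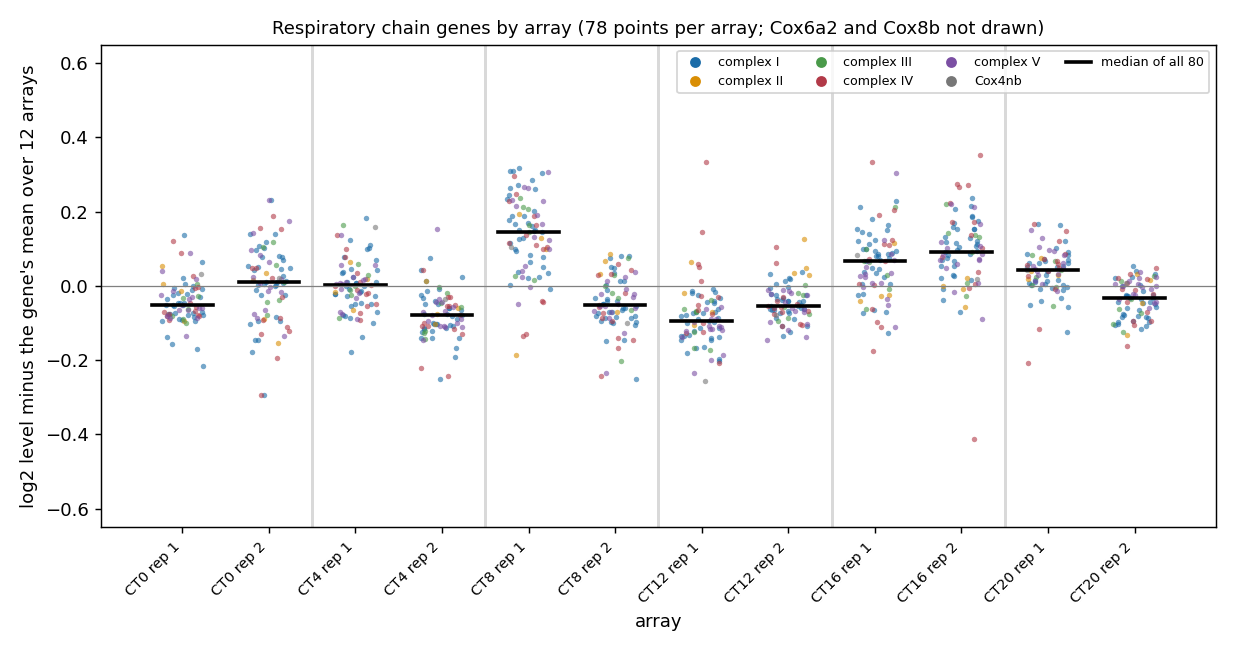
Level of each gene minus its mean over the 12 arrays (log2), coloured by complex, with a black bar at the median of all 80 on each array. CT8 replicate 1 has the highest median, 0.145, and CT12 replicate 1 the lowest, −0.096.

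**Figure D5:**
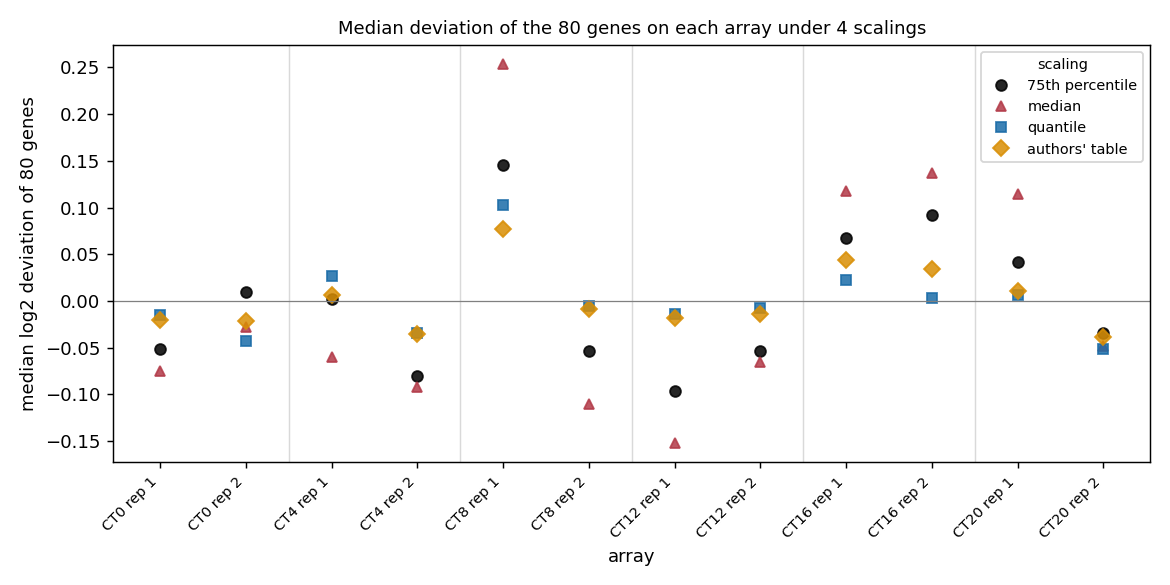
Median deviation (log2) of the 80 genes on each array under 4 scalings of the arrays. CT8 replicate 1 is highest under all 4, between 0.077 and 0.254, while the CT16 arrays are at 0.118 and 0.137 with median scaling and at 0.023 and 0.003 with quantile normalisation.

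The other comparisons 12 h apart showed less. At CT12, 23 of 80 were higher than at CT0, against 42.2% of all names, with a median of −0.056 against −0.042. The median of the 80 was above 0 under quantile normalisation (0.021) and in the authors' deposited table (0.016), and it lay between −0.087 (without CT0 replicate 1) and −0.02 (without CT0 replicate 2) when single arrays were left out. Both CT12 arrays were above both CT0 arrays for 4 of 80, against 15.9%, and below both for 26, against 24.6%. At an unadjusted p under 0.05, 0 of 80 were higher, against 4.72%. No gene of the 80 passed at an adjusted p of 0.05 either way, where 0.129% of all names were higher and 0.0647% lower. At CT20, 27 of 80 were higher than at CT8, against 53.6% of all names, with a median of −0.053 against 0.018. That median was 0.056 without CT8 replicate 1 and −0.138 without CT8 replicate 2, so its sign rests on 1 array. Both CT20 arrays were above both CT8 arrays for 6 of 80, against 24.8%, and below both for 12, against 20.3%. At an unadjusted p under 0.05, 0 of 80 were higher, against 6.39%. No gene of the 80 passed at an adjusted p of 0.05, where 0.0216% of all names were higher and 0.0377% lower. Ndufv2 was the only gene with an unadjusted p under 0.05, lower at CT20 by 0.25 ± 0.086 log2 units, where 5.79% of all names were lower. Fitted 24 h peaks lay between CT12 and CT24 for 54 of 80 genes and for 10149 of 18557 names, though none of the waves of the 80 passed.

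Lists of other mitochondrial genes held no call in the same test. Of lists drawn up with these data known, 0 of 17 assembly factors, 0 of 14 genes of electron carriers and coenzyme Q synthesis, 0 of 18 of pyruvate dehydrogenase and the citric acid cycle, 0 of 22 transcriptional regulators and 0 of 23 carriers, channels and import genes passed the 24 h test at an adjusted p of 0.05, against 0.593% of all names, so lists of these sizes would hold few or no calls at that rate. Their median folds were 1.13, 1.07, 1.11, 1.17 and 1.104, against 1.19 for all names. At an unadjusted p under 0.05 there were 0, 1, 1, 2 and 2, against 15.7% of all names.

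The genes with the widest waves in those lists were still short of the threshold. Among assembly factors they were Lrpprc, which stabilises mitochondrial mRNA, at 1.22 (limma adjusted p = 0.34) and Ttc19, a complex III factor, at 1.16 (adjusted p = 0.455). Among carriers and coenzyme Q genes they were Pdss1 at 1.25 (adjusted p = 0.397) and Coq4 at 1.18 (adjusted p = 0.308). In the citric acid cycle they were Idh2, mitochondrial isocitrate dehydrogenase, at 1.41 with a peak at CT9.4 (adjusted p = 0.129) and Ogdh at 1.18 (adjusted p = 0.469). Ppargc1a, the coactivator PGC-1 alpha that drives mitochondrial gene programmes, had 1.68 with a peak at CT3.2 (limma adjusted p = 0.295). Its levels were 0.66 and 0.22 at CT0, 0.89 and 0.95 at CT4, 0.79 and 0.94 at CT8, 0.17 and −0.42 at CT12, 0.22 and 0.27 at CT16, and 0.47 and 0.68 at CT20. Every CT4 and CT8 array was above all others. Ppara had 1.35 (adjusted p = 0.361). Among carriers they were Ucp3, an uncoupling protein of muscle and fat, at 3.93 (2.00 to 7.72, adjusted p = 0.482) and Vdac2, an outer membrane channel, at 1.22 (adjusted p = 0.312).

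Other probes of the same names gave a partial check. The array holds 31 further probes for 25 of the names, and 26 of them passed the background filter. Of these, 18 were higher at CT16 than at CT4, where 52.8% of all names were. An unadjusted 24 h p under 0.05 (limma) was found for 2, against 15.7% of all names. Those were Cox4nb, with a fold of 1.34 from its dimmer probe against 1.103 from its brighter, and Ndufa12, with 1.14 against 1.05. Probes disagreed for Atp5b: 2 dimmer probes were lower at CT16 than at CT4 by 0.28 and 0.18 log2 units, and the brightest was higher by 0.06. The sign of this difference also varied between probes for Atp5a1 (−0.035 dimmer, 0.179 brightest), Uqcrc1 (−0.15, 0.006), Ndufa3, Cox7a2 and Ndufab1. For Cox4nb it was −0.485 from the dimmer probe and −0.01 from the brightest.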

How the data were processed

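Total RNA of whole bladder was labelled with Cy3 and hybridised to Agilent arrays, per the labels. The deposited intensity values come from Agilent Feature Extraction 10.5.1.1, which detrended and background-subtracted each spot, per the file headers; probe positions are on mm7. The authors also deposited a table of log2 values, whose normalisation and filter are not given in the sources used here; R 2.8.1 is named in the submitters' processing notes. Deposited yes-or-no marks gave spots well above background.

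Here log2 processed intensity minus each array's 75th percentile was computed for 41174 probes; spots of a probe were averaged and control and outlier spots left out. Names well above background on at least 4 arrays were kept, with the brightest probe per name. limma 3.58.1 (R 4.3.3) fitted a 24 h wave, 24 h and 12 h waves, the 6 times, and 3 differences 12 h apart. Adjustment was Benjamini-Hochberg over 18557 names at 0.05. The self-test used simulated waves. Array number limits the precision. The pairs of arrays correlated at 0.985 to 0.993.

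The genes and lists were chosen with earlier results of these data known. Genes named are those past a threshold, the 2 largest 24 h amplitudes per complex and list, tissue isoforms and core subunits. Alternatives covered background correction, scaling, filter, probes, blocks, weights, a muscle covariate and each array left out.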

Additional observations from a re-analysis of the deposited data

How the results depend on the processing

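The count of 0 respiratory chain genes past the adjusted threshold in the 24 h test, the test of any difference and the 12 h test held in all 14 other settings and 12 single-array omissions, with 12 h terms and differences between slides not estimable when slide was a fixed block. None of 35 named genes passed the 24 h test in any setting. Without single arrays the lowest adjusted 24 h p of the 80 genes ran from 0.203 to 0.514. The exception among the differences was CT16 minus CT4, where 1 gene, Ndufv2, passed with normexp, with the authors' table, with array weights and with an intensity trend. The cause was not tested.

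The number of all names past the 24 h threshold was 110 and became 65 with median scaling, 168 in the authors' table, 49 with no filter on dim probes, 167 with all 12 arrays required above background, 2 with slide as a fixed block, 28 as a random block, 199 with array weights and 55 with the muscle covariate. It was 18 without the 3 arrays highest in slow and cardiac muscle transcripts, a setting chosen after seeing the data. For any difference it was 17 and became 53 with normexp, 47 in the authors' table, 37 with the stricter filter, 33 with array weights, 49 with an intensity trend and 11 with the muscle covariate. It was 0 with slide fixed (2839 at an unadjusted p under 0.05 by limma) and 0 without the 3 arrays (3872). Leaving out single arrays gave 35 to 103 names for the 24 h wave, 7 to 138 for any difference, the highest without CT0 replicate 1, and 0 to 1 for the 12 h wave. The cause was not tested.

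The median CT12 minus CT0 difference was 0.021 under quantile normalisation and 0.016 in the authors' table, and the CT16 minus CT4 median −0.004 under quantile normalisation and 0.189 with median scaling. The CT20 minus CT8 median ran from −0.138 to 0.056 without single arrays and was −0.138 without the 3 arrays. The median 24 h fold was 1.15 with slide fixed. With the replicate number as a block, 91 names and 0 of the 80 genes passed the 24 h test. Deviations of same-numbered arrays correlated over 0.1 in 10 of 15 pairs of times (−0.198 to 0.438). Since 5 pairs did not and the labels give no shared source, the numbers were not taken to pair the arrays, though a shared replicate effect in part of them is not excluded. With slide as a random block the fits by time equal those without it, since time lies within slide. With 2 arrays a time, a median of the 80 genes is uncertain by about 0.069 log2 units between arrays of a time.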
